A study of Homo sapiens with 6 samples.

Results

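The subunits of the respiratory chain and of ATP synthase that are encoded in the nucleus were followed as 1 gene module in MDA-MB-231 cells. They were taken by gene symbol: the NDUFA, NDUFB, NDUFC, NDUFS and NDUFV genes with a number, SDHA to SDHD, the UQCR genes, the COX genes numbered from 4 to 8, the ATP5 genes, CYC1 and CYCS. This gave 87 of 41471 gene symbols in the tables of the knockdown experiment and 87 of 34157 in those of the Reb experiment, 88 in either and 86 in both. COX6A2 was listed only in the knockdown tables and COX4I2 only in the Reb tables. Symbols ending in P or P and digits, which name processed copies, were left out by the rule (54 and 32 symbols). By function 37 of the 88 genes were assigned to complex I, 4 to complex II, 10 to complex III, 1 to the electron carrier cytochrome c, 18 to complex IV and 16 to complex V. The pattern also takes in, as 2 genes of no complex, ATP5S and ATP5SL, which are older symbols of an ATP synthase coupling factor and of an assembly factor of complex I, and, within complexes III and V, UQCRHL and ATP5L2, which are near-identical copies of UQCRH and ATP5L. NDUFA4, named as a complex I gene, was counted with complex IV, in which its protein is found, and COX7A2L was counted there as a factor of respiratory supercomplexes.

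MDA-MB-231 is a human TNBC cell line. In the knockdown experiment the cells stably carried a lentiviral scramble-shRNA or 1 of 2 hairpins against CDK16, named CDK16-sh1 and CDK16-sh2, and the lines had been sorted by FACS after infection. In the Reb experiment cells without a hairpin were treated for 48 h with DMSO, with 1 μM Reb or with 5 μM Reb, where Reb (rebastinib) is a kinase inhibitor used as an inhibitor of CDK16. Each of the 6 conditions had 1 mRNA library, so no difference has a replicate check, and both treated libraries of an experiment are compared with the same control library. The 2 experiments were counted in separate tables.

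Complexes I, III and IV pass electrons from NADH to oxygen and pump protons across the inner mitochondrial membrane, complex II feeds electrons in from succinate, and complex V uses the proton gradient to make ATP. Cytochrome c carries electrons from complex III to complex IV. Except for complex II, which is wholly nuclear-encoded, the complexes are mosaics: their central membrane subunits are read from mitochondrial DNA, and all other subunits are imported from the cytosol, so both genomes have to be expressed for a complete enzyme. The promoters of the nuclear genes are known to be bound by NRF1, by the ETS factor GABP, by YY1 and by CREB, and usually lack a TATA box.

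Promoter windows of RefSeq on GRCh38.p14, which run from 250 bases before to 50 bases after the annotated start, were found for 70 of the 88 genes. Letters were searched on both strands: the core palindrome of NRF1, CCGGAAG for ETS factors, AAGATGGCG for YY1, TGACGTCA for CREB and TATAAA for a TATA box. At least 1 of the first 4 words was found in the windows of 33 of 70 members (47.1%) and of 4533 of 27305 genes with a window (16.6%). The ETS word was in 20 members (28.6%, against 12.2% of the genes with a window) and the YY1 word in 9 (12.9% against 2.14%). The CREB word was in 5 (7.14% against 2.25%), the NRF1 word in 4 (5.71% against 1.52%) and the TATA word in 7 (10.0% against 14.0%). The 27305 genes were not limited to those expressed in these cells. A gene with several windows, as 9 members have, was counted if any of them held the word. A match is a description of the letters and not evidence of a binding site. The 5 windows printed here belong to members that lay far apart after 5 μM Reb, that is NDUFA1 and NDUFV3 of complex I and the complex II genes SDHA, SDHB and SDHD. Only the 250 bases before the start are shown, 5′ to 3′ on the strand of the gene, with the words of the search in capitals. NDUFA1 (chrX:119871582-119871831, plus strand) holds the ETS word at position -47, counted from the start. NDUFV3 (chr21:42893059-42893308, plus strand) and SDHA (chr5:218070-218319, plus strand) hold none of the words. SDHB (chr1:17054033-17054282, minus strand) holds the ETS word at -128 and the CREB word at -4, of which the first 4 letters fall into the part shown, and the YY1 word at position 11 after the start. SDHD (chr11:112086623-112086872, plus strand) holds the NRF1 word at -110 and the ETS word at -77.
NDUFA1: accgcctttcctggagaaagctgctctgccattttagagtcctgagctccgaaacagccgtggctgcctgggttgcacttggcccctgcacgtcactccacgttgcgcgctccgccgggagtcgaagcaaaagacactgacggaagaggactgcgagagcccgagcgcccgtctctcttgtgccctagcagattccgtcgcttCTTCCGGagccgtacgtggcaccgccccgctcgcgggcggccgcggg
NDUFV3: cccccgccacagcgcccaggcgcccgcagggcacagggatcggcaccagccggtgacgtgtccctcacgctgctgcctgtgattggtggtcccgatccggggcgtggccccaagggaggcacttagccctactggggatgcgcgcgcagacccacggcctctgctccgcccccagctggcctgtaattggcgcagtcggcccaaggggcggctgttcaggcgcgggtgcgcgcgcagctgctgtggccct
SDHA: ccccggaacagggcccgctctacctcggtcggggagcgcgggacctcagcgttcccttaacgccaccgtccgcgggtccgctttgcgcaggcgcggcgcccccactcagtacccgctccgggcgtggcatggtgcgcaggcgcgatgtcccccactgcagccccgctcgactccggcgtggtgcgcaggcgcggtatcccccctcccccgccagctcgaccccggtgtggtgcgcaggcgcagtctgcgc
SDHB: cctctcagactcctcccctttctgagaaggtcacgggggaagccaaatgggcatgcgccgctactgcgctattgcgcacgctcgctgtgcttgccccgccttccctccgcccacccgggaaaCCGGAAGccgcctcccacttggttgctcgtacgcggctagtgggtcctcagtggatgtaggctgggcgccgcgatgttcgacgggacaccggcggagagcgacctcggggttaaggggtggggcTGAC
SDHD: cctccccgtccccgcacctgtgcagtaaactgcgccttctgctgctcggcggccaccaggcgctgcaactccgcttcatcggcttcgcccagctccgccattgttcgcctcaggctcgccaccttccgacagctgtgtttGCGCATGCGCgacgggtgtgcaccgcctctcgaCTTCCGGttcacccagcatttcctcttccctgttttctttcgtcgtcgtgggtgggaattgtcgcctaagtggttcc

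Total counts per library ranged from 25838443 to 50303269. CDK16 had 3223 counts in the scramble library, 1360 with CDK16-sh1 and 846 with CDK16-sh2, log2 fold changes of -1.52 and -1.82, so the targeted transcript was lower with both hairpins. Markers of the cell line were partly as known: VIM and CD44 were high in all 6 libraries (at least 177 and 31.8 RPKM), ESR1, PGR and CDH1 reached at most 0.174 RPKM, ERBB2 lay between 2.56 and 6.54 RPKM and EPCAM between 1.55 and 4.30 RPKM, and PTPRC, PECAM1 and ALB reached at most 0.395 RPKM. SPARC, the other mesenchymal marker of the line, went against the label in 1 experiment: it had 1 to 15 counts in the knockdown libraries and 283 to 1970 in the Reb libraries. The library at 5 μM Reb stood apart: its top 100 genes held 35.3% of its counts where those of the DMSO library held 24.3%, and 16.4% lay on mitochondrially encoded genes against 7.19%. The CDK16-sh2 library differed from scramble in the same way, with 31.3% against 25.8% and 16.2% against 11.3%. Scaled by library totals in place of TMM, the usual edgeR scaling by trimmed means, the median of all genes tested moved by -0.68 on the log2 scale in that library and by -0.19 with CDK16-sh2, and by at most 0.05 in the other treated libraries. The log2 fold changes of genes and lists are TMM-scaled unless library totals are named, and shares within a library need no scaling.

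All the core machinery was expressed. At a minimum of 1 CPM, a gene's counts scaled to the size of the library, as the mean of an experiment, 81 of 87 members could be compared in the knockdown experiment and 82 of 87 in the Reb experiment. The genes under this minimum were tissue isoforms and copies: COX8C, ATP5L2, COX7A1 and COX6B2 in both experiments, COX6A2 and COX7B2 in the knockdown experiment and COX4I2 in the Reb experiment. Per length, as RPKM, the median of the compared members was 21.4 in the scramble library, 26.6 with CDK16-sh1 and 22.9 with CDK16-sh2, where the median of all genes tested was 4.56, 4.37 and 3.80 RPKM. In the Reb experiment the medians of the members were 11.9 RPKM with DMSO, 12.8 at 1 μM and 12.3 at 5 μM, and those of all genes tested were 3.99, 4.07 and 2.36 RPKM. At 5 μM the members' median RPKM was thus close to that with DMSO, and the median of all genes was lower. NDUFS5, a small accessory subunit of complex I, had the highest RPKM of the module in every library, with 435.9, 581.7 and 747.3 in scramble, CDK16-sh1 and CDK16-sh2 and 546.8, 686.1 and 817.3 with DMSO, 1 μM and 5 μM Reb. NDUFB7, another accessory subunit of complex I, was second in all libraries but that at 5 μM, where COX6C of complex IV stood second with 294.5 RPKM.

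The members took a larger share of the counts in every treated library than in its control. In scramble, CDK16-sh1 and CDK16-sh2 it was 0.617%, 0.740% and 0.680% of all counts, and with DMSO, 1 μM and 5 μM Reb it was 0.480%, 0.530% and 0.712%. The 95% Clopper-Pearson intervals were narrow, from 0.478% to 0.482% for DMSO and from 0.709% to 0.714% at 5 μM. These intervals, like those of single genes below, cover counting error only, since without molecular identifiers a read need not stand for its own molecule. With the mitochondrially encoded genes taken out of the total, the shares were 0.695%, 0.826% and 0.811% in the knockdown experiment and 0.517%, 0.578% and 0.851% in the Reb experiment. In bulk samples fewer cells of a kind and less RNA per cell cannot be told apart.

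The complexes did not share these counts in the same way. Complex IV held 0.113% of the DMSO library, 0.123% at 1 μM and 0.229% at 5 μM, and complex II held 0.0272%, 0.0306% and 0.0140%. At 5 μM complex IV held 32.2% of the members' counts against 23.6% with DMSO, complex I held 30.7% against 34.4%, and complex II held 1.97% against 5.67%. Most counts of complex II came from SDHA, its flavoprotein, with 10217 of 13701 counts in the DMSO library. In the knockdown experiment the same shares moved less, with complex II at 5.13%, 3.93% and 4.29% of the members' counts in scramble, CDK16-sh1 and CDK16-sh2 and complex IV at 19.9%, 20.9% and 21.8%.

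**Figure D1:**
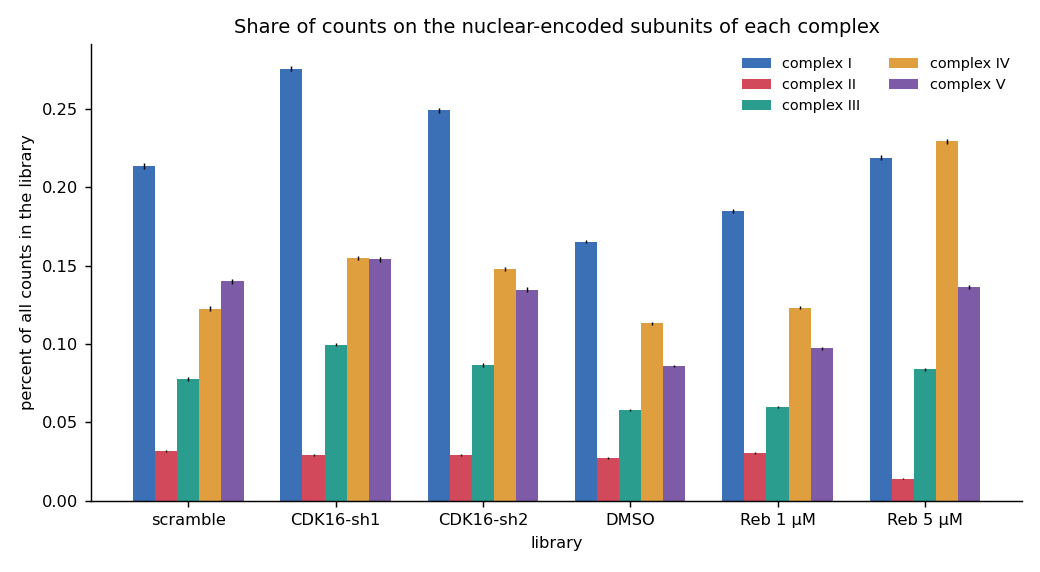
Percent of all counts of each library (y axis) on the nuclear-encoded subunits of complexes I to V (coloured bars, with 95% Clopper-Pearson intervals) in the 6 libraries (x axis). Complex IV stands at 0.229% at 5 μM Reb against 0.113% with DMSO, and complex II at 0.0140% against 0.0272%.

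The first question was whether the module moved with CDK16 knockdown. With CDK16-sh1 the median log2 fold change of the 81 members was 0.41, where the median of all 15295 genes tested was -0.00, and with CDK16-sh2 it was 0.26 against 0.02. With CDK16-sh1 72 of 81 members lay above the scramble library (49.9% of all genes) and with CDK16-sh2 69 of 81 (51.4%), or 46 of 81 when libraries were scaled by their totals, a scale on which 36.1% of all genes were above it. With TMM scaling both hairpins had 63 members above scramble (32.2% of all genes) and 3 below it in both (30.9% of all genes), NDUFS1, SDHD and ATP5A1. With library totals, where fewer members lay above scramble with CDK16-sh2, this shared count was not made. The members were also closer together than genes at large: the middle 50% of members spanned 0.37 with CDK16-sh1 and 0.38 with CDK16-sh2, and those of all genes 0.87 and 0.73. This was not particular to the module. Cytosolic ribosomal protein genes spanned 0.30 and 0.31, and mitochondrial ones 0.50 and 0.34. Changes past 2-fold were few: 4 members were at least 2-fold higher with CDK16-sh1 (4.33% of all genes were), 0 were at least 2-fold lower (6.86%), and with CDK16-sh2 no member passed 2-fold in either direction (2.2% and 7.62%).

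**Figure D2:**
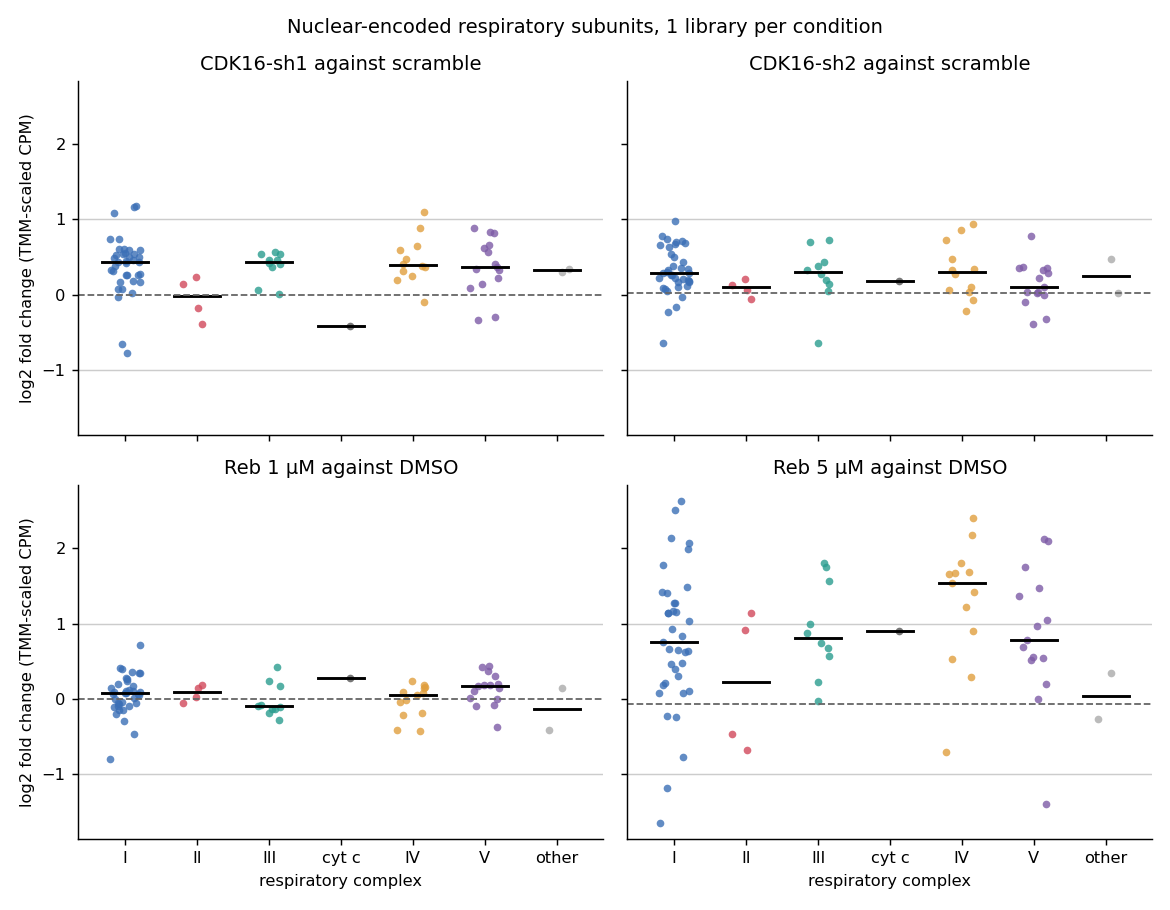
Log2 fold change of each compared member (points; y axis, TMM-scaled CPM) by complex (x axis) in the 4 treated libraries against their control; black bars are medians of the complex, the dashed line is the median of all genes tested and grey lines mark 2-fold. With the hairpins most points lie between 0 and 1, at 1 μM they lie around 0, and at 5 μM 35 lie above the upper grey line and 3 under the lower one.

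Members of the module are short and abundant. The median exon length was 2509 nt for the compared members and 4350 nt for all genes of the knockdown experiment, and the median level was 64.3 and 17.8 CPM. Genes are not independent replicates. Across all genes tested the log2 fold change of CDK16-sh1 had a Spearman rho of 0.50 with GC content and of -0.30 with exon length, and across the 81 members 0.44 and -0.20. With a trend on mean expression and length taken out of all genes, the members' median stood above that of all genes by 0.18 with CDK16-sh1 and by 0.07 with CDK16-sh2, in place of 0.41 and 0.24. With a trend on GC content and length taken out, it stood above by 0.23 and 0.18. The part of these properties in the difference was not tested further.

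By complex, the medians with CDK16-sh1 were 0.44 for complex I, -0.02 for complex II, 0.44 for complex III, 0.40 for complex IV and 0.37 for complex V. With CDK16-sh2 they were 0.28, 0.10, 0.30, 0.30 and 0.11, and with library totals 0.09, -0.10, 0.11, 0.11 and -0.09, so complexes II and V changed sign with the scale. All 10 members of complex III lay above scramble with CDK16-sh1 (49.9% of all genes) and 9 of 10 with CDK16-sh2 (51.4%), or 6 of 10 with library totals (36.1%). The highest values with CDK16-sh1 were those of NDUFA3, NDUFS8, COX6B1 and NDUFA11, the only members past 2-fold.

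NDUFA3, an accessory subunit of complex I, had 3.86 RPKM in the scramble library, 8.57 with CDK16-sh1 and 5.47 with CDK16-sh2. Its log2 fold changes were 1.17 (95% counting interval 0.97 to 1.40) and 0.69 (0.46 to 0.94), so it was the member with the largest difference shared by both hairpins. NDUFB8 and NDUFA8, accessory subunits of complex I, and UQCR11, a small subunit of complex III, followed, with log2 fold changes of 0.56, 0.46 and 0.54 with CDK16-sh1 and 0.50, 0.71 and 0.70 with CDK16-sh2. Of the exon bases of NDUFB8 33.8%, and of those of UQCR11 10.9%, also belong to another gene on the same strand, so their counts are less certain.

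For other members the hairpins lay further apart. NDUFS8, an iron-sulfur core subunit of complex I, had 9.25, 20.3 and 9.30 RPKM in scramble, CDK16-sh1 and CDK16-sh2, log2 fold changes of 1.16 (1.06 to 1.26) and 0.20 (0.08 to 0.33). COX6B1, which joins the monomers of complex IV, had 32.8, 68.6 and 27.4 RPKM, log2 fold changes of 1.09 and -0.06. NDUFS5 had 0.45 and 0.97, COX6C -0.10 and 0.94, and COX7A2L 0.25 and 0.85, so these 3 were the highest members with CDK16-sh2. The difference between the hairpins was not tested, since each had 1 library.

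Of the members under the scramble level, NDUFS1, the largest iron-sulfur core subunit of complex I, had 9.83, 5.64 and 7.63 RPKM, log2 fold changes of -0.77 (-0.85 to -0.69) and -0.17 (-0.24 to -0.09). ATP5A1, the alpha subunit of the head of complex V, had -0.30 and -0.00, the latter with an interval from -0.05 to 0.05. SDHD had -0.39 and -0.06, the latter with an interval from -0.22 to 0.09. NDUFA5 (-0.65) and CYCS (-0.42) were low with CDK16-sh1 but stood at 0.27 and 0.18 with CDK16-sh2, and CYCS at -0.02 there with library totals. In turn UQCRC2, a core subunit of complex III, had 6.05, 8.15 and 3.37 RPKM and NDUFS3, a core subunit of complex I, 20.8, 26.6 and 11.6 RPKM, which is 0.46 and 0.38 with CDK16-sh1 and -0.65 for each with CDK16-sh2. Of the exon bases of NDUFS3 19.6% are shared with the neighbouring gene PTPMT1.

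Tested with both hairpins as 1 group against scramble, 0 members were called (quasi-likelihood test of edgeR, Benjamini-Hochberg adjusted p-values over all genes not above 0.05 and 2-fold). The background was the same, with 0% of the 15295 genes called in each direction. No member had an unadjusted p-value under 0.05 (382 genes, 2.5%, had one), and DESeq2 called 0 members as well. In this test the spread is the difference between the hairpins.

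The Reb experiment asked the same of an inhibitor of CDK16 at a low and a high dose. At 1 μM the median of the 82 members was 0.07 against 0.00 for all 15655 genes tested, with 51 of 82 members above DMSO (50.2% of all genes). No member passed 2-fold at 1 μM (1.28% of all genes were at least 2-fold higher and 1.92% lower). At 5 μM the median was 0.89 against -0.07, and 70 of 82 members lay above DMSO (48.3% of all genes). At this dose 35 members (42.7%) were at least 2-fold higher, where 23.6% of all genes were, and 3 members (3.66%) were at least 2-fold lower, where 27.2% were. With library totals as the scale, which lowers all genes, 46 members lay above DMSO (30.6% of all genes), 14 were at least 2-fold higher (11.7%) and 7 at least 2-fold lower (43.4%), and the members' median was 0.20 against -0.75.

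The members' distance from all genes at 5 μM was 0.96 with TMM scaling and 0.95 with library totals, and 0.51 once a trend on mean expression and length had been taken out. Across the 82 members the log2 fold change at 5 μM had a Spearman rho of 0.41 with mean expression and -0.21 with exon length, and across all genes tested 0.13 and -0.09. At 1 μM the members' rho with GC content was -0.48, where it was -0.36 across all genes.

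**Figure D3:**
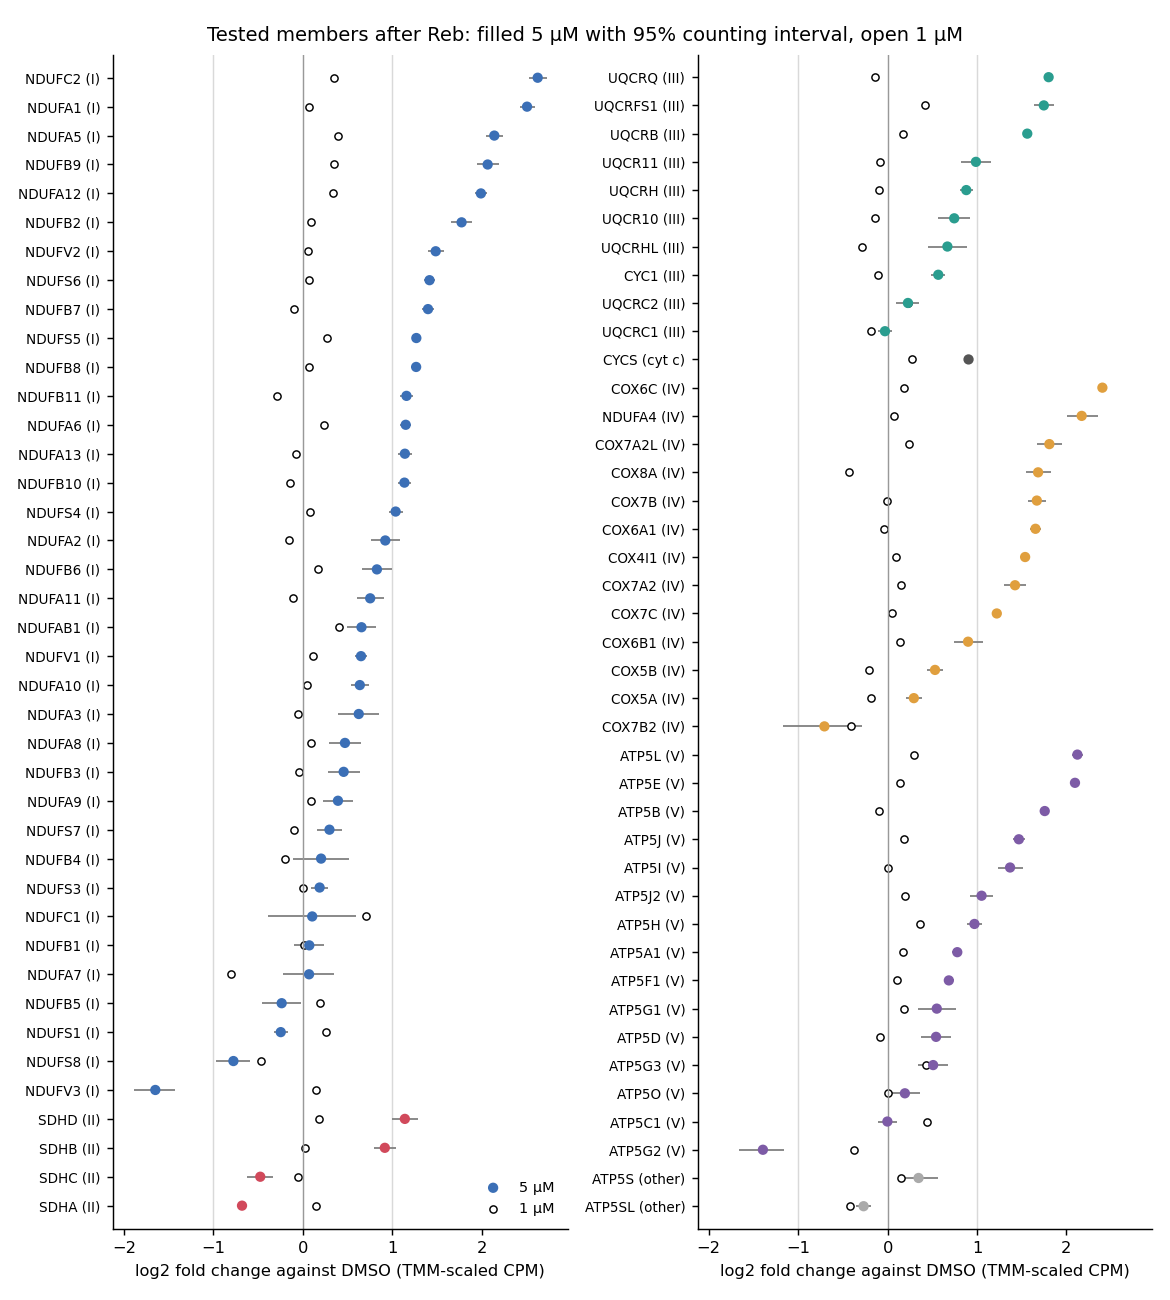
Log2 fold change against DMSO (x axis, TMM-scaled CPM) of 81 of the 82 compared members (y axis, grouped by complex and coloured by it) at 5 μM Reb (filled, with 95% counting intervals) and 1 μM Reb (open). At 5 μM the values run from -1.65 for NDUFV3 to 2.63 for NDUFC2, and at 1 μM from -0.80 for NDUFA7 to 0.71 for NDUFC1.

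By complex, the medians at 5 μM were 0.75 for complex I, 0.22 for complex II, 0.81 for complex III, 1.54 for complex IV and 0.78 for complex V, and at 1 μM they were 0.07, 0.08, -0.10, 0.05 and 0.17. With library totals the medians at 5 μM were 0.07, -0.47, 0.12, 0.85 and 0.09, in which complex II has the opposite sign and complex IV is again the highest. Within complex I the 7 nuclear-encoded core subunits, which carry the flavin and the iron-sulfur clusters, had a median of 0.19 at 5 μM, and the 30 accessory subunits had 0.98 (-0.50 and 0.29 with library totals). In the accessory group 15 of 30 were at least 2-fold higher and in the core group 1 of 7, NDUFV2, beside 23.6% of all genes. With library totals 6 of 30 and 0 of 7 were, beside 11.7% of all genes. With CDK16-sh1 the core and accessory medians were 0.38 and 0.44 and with CDK16-sh2 0.11 and 0.31. Members are not replicates of a condition, so no test was made between these groups.

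The highest values of complex I at 5 μM were those of NDUFC2 and NDUFA1, accessory subunits of its membrane arm. NDUFC2 had 8.13 RPKM with DMSO, 10.8 at 1 μM and 31.2 at 5 μM, a log2 fold change of 0.35 at 1 μM and of 2.63 (2.53 to 2.73) at 5 μM, with 16.3% of its exon bases shared with the read-through gene NDUFC2-KCTD14. NDUFA1, whose promoter holds the ETS word above, had 42.6, 46.5 and 150.5 RPKM, log2 fold changes of 0.08 and 2.51 (2.43 to 2.59). Both genes were thus far above DMSO at the higher dose, and at the lower NDUFC2 (0.24 to 0.47) lay further above it than NDUFA1.

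Other subunits of complex I stood at the opposite end. NDUFV3, an accessory subunit of the NADH-oxidizing arm and with no word in the window above, had 3.78, 4.34 and 0.745 RPKM, log2 fold changes of 0.15 and -1.65 (-1.89 to -1.43). NDUFS8, which was high with CDK16-sh1, had 4.74, 3.54 and 1.71 RPKM, that is -0.47 (-0.61 to -0.34) and -0.78 (-0.97 to -0.59). By the smaller of the 2 absolute changes, NDUFS8 had the largest difference below DMSO shared by both doses.

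Complex II was divided. SDHA, the flavoprotein that oxidizes succinate, had 24.2 RPKM with DMSO, 27.8 at 1 μM and 9.38 at 5 μM, and SDHC, a membrane anchor, had 2.21, 2.21 and 0.983. Their log2 fold changes at 5 μM were -0.68 (-0.74 to -0.62) and -0.47 (-0.62 to -0.33). SDHB, the iron-sulfur subunit, and SDHD, the other membrane anchor, had 9.41, 9.90 and 11.0 RPKM and 5.93, 6.97 and 8.12 RPKM, log2 fold changes of 0.92 (0.80 to 1.04) and 1.14 (1.00 to 1.29). The intervals of these pairs did not overlap, and at 1 μM all 4 genes lay between -0.05 and 0.18. With the hairpins the 4 genes lay between -0.39 and 0.24. SDHB and SDHD hold words of the search in their windows above, SDHA holds none, and for SDHC no window was read. The printed windows were chosen by their values at 5 μM, and other members went the other way. NDUFS1 and NDUFS3 hold the ETS word and had -0.25 and 0.19 at 5 μM. NDUFA5 and UQCRFS1 hold none of the words and had 2.14 and 1.75. A link between the words and the values was not tested. Over the whole module the 20 members with the ETS word had a median of 1.14 at 5 μM and the 47 with a window and without it 0.66. In the other libraries the medians with and without it were closer, with 0.35 against 0.43 for CDK16-sh1, 0.31 against 0.26 for CDK16-sh2 and 0.02 against 0.07 at 1 μM. At 5 μM, for the YY1 word the medians were 0.92 and 0.89 and for the NRF1 word 0.34 over 4 members and 0.91 over 63.

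In complex III the values at 5 μM ran from -0.03 for UQCRC1, a core subunit, to 1.80 for UQCRQ, a small accessory subunit. Of the catalytic subunits, UQCRFS1, the Rieske iron-sulfur protein, had 6.45, 8.94 and 13.4 RPKM and log2 fold changes of 0.42 (0.31 to 0.53) and 1.75 (1.64 to 1.86), above DMSO at both doses. CYC1, the nuclear-encoded cytochrome of the complex, had 34.1, 32.9 and 31.3 RPKM. Its log2 fold changes were -0.10 and 0.57, of which the second turns to -0.12 with library totals. CYCS, cytochrome c itself, had 47.6, 59.6 and 55.3 RPKM, log2 fold changes of 0.27 and 0.91, and 0.22 at 5 μM with library totals.

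In complex IV 12 of 13 compared members lay above DMSO at 5 μM (48.3% of all genes) and 9 of 13 were at least 2-fold higher (23.6%). With library totals 10 of 13 lay above DMSO (30.6% of all genes). On that scale 3 were at least 2-fold higher (11.7%) and 1 was at least 2-fold lower (43.4%). COX6C, a small subunit that spans the membrane, had 89.9, 106.0 and 294.5 RPKM, log2 fold changes of 0.19 and 2.40 (2.37 to 2.43). NDUFA4 had 2.16, 2.35 and 6.05 RPKM and COX4I1, the largest nuclear-encoded subunit, 80.5, 88.9 and 144.9 RPKM, log2 fold changes at 5 μM of 2.17 and 1.54. COX8A had 26.2, 20.0 and 52.2 RPKM, which is -0.43 (-0.61 to -0.27) at 1 μM and 1.68 (1.54 to 1.83) at 5 μM, so the doses lay on opposite sides of DMSO. Of its exon bases 34.5% are shared with another gene on the same strand.

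Several subunits of complex IV exist as a ubiquitous and a tissue form, and outside the COX7B pair described next the tissue forms had at most 18 counts in a library. COX4I1 had 19402 to 26138 counts in the Reb libraries and COX4I2, the lung form, 0 to 1. COX6A1 had 3829 to 7259 counts in the knockdown libraries and COX6A2, the heart and muscle form, 0 to 1. COX8A had 501 to 2510 counts over the 6 libraries and COX8C, a testis form, 0 to 1. COX6B2, another testis form, had 2 to 4 counts in the knockdown libraries and 18, 2 and 16 with DMSO, 1 μM and 5 μM Reb, and COX7A1, the heart and muscle form, had 0 to 10 counts in the 6 libraries. COX6B2 and COX7A1 were therefore at or near the floor of 3 counts in most libraries, and no fold is given for them.

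COX7B2, a paralog of COX7B, differed between the experiments. It had 17, 17 and 12 counts in scramble, CDK16-sh1 and CDK16-sh2, and 202, 154 and 57 with DMSO, 1 μM and 5 μM Reb. As a share of the counts of the pair it was 1.19%, 0.712% and 0.749% in the knockdown libraries. In the Reb libraries it was 14.0% (12.3 to 15.9), 11.0% (9.39 to 12.7) and 3.03% (2.30 to 3.90), so the share at 5 μM lay under that with DMSO beyond counting error. Per length the share was higher, since COX7B2 has the shorter exons: it held 4.32%, 2.62% and 2.75% of the pair's RPKM in the knockdown libraries and 38.0%, 31.6% and 10.5% in the Reb libraries. Both members contributed, with log2 fold changes at 5 μM of -0.71 for COX7B2 and 1.67 for COX7B. SPARC, a marker unrelated to respiration, was also low in the knockdown libraries and present in the Reb libraries. The controls belong to separate tables, and a difference between the cultures cannot be told apart from one of handling.

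COX7A2 and COX7A2L shared their family's counts at 57.7% (56.0 to 59.5) and 42.3% in the scramble library, 59.7% and 40.2% with CDK16-sh1 and 49.0% (47.5 to 50.5) and 51.0% with CDK16-sh2. In the Reb libraries COX7A2 held 59.8% (57.4 to 62.1) with DMSO, 58.5% at 1 μM and 53.4% (51.3 to 55.4) at 5 μM. The share of COX7A2 in the family's RPKM was 79.9%, 81.1%, 73.6%, 80.2%, 80.2% and 76.2% in scramble, CDK16-sh1, CDK16-sh2, DMSO, 1 μM and 5 μM, where COX7A2L has the longer exons. COX7A2L thus held a larger share with CDK16-sh2 and at 5 μM, and the counting intervals of these libraries and their controls did not overlap.

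**Figure D4:**
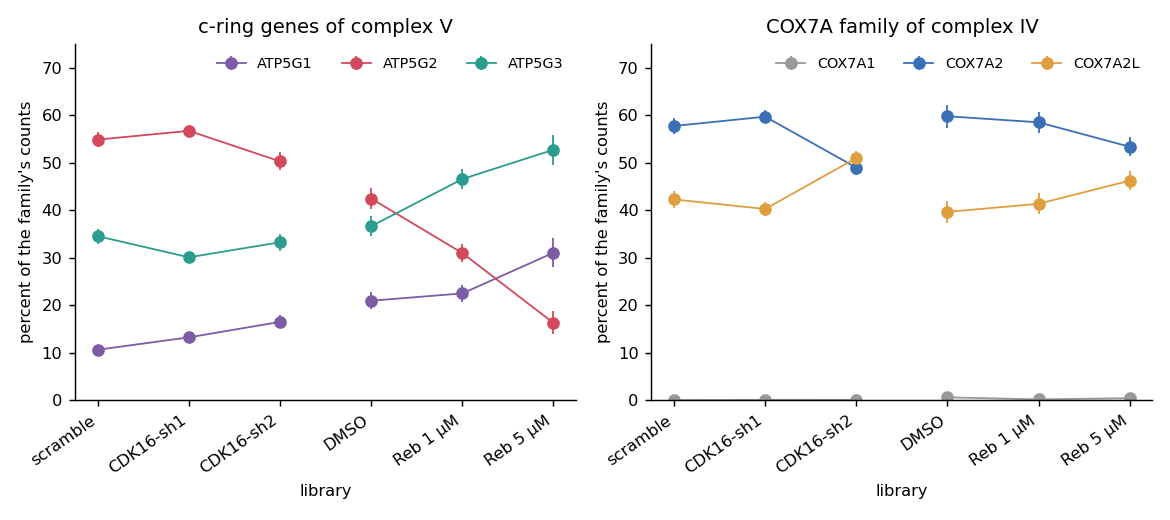
Percent of the counts of a gene family (y axis) held by each member in the 6 libraries (x axis), for the c-ring genes of complex V (left) and the COX7A family of complex IV (right), with 95% Clopper-Pearson intervals; lines join libraries of 1 experiment. ATP5G2 runs from 42.4% with DMSO to 16.2% at 5 μM Reb, and COX7A2L from 42.3% with scramble to 51.0% with CDK16-sh2.

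The c-ring of complex V, the rotor that protons turn, is made of 1 mature protein that 3 genes encode, ATP5G1, ATP5G2 and ATP5G3. ATP5G2 had 882, 692 and 155 counts with DMSO, 1 μM and 5 μM Reb, which was 42.4% (40.3 to 44.6), 31.0% (29.1 to 32.9) and 16.2% (14.0 to 18.7) of the family's counts and 44.2%, 33.4% and 17.2% of its RPKM. ATP5G3 went from 36.6% to 46.6% and 52.7% of the counts, and ATP5G1 from 20.9% to 22.5% and 31.0%. The log2 fold changes at 5 μM were -1.39 (-1.66 to -1.15) for ATP5G2, 0.51 for ATP5G3 and 0.55 for ATP5G1 (-0.18 and -0.14 with library totals), and at 1 μM they were -0.37, 0.43 and 0.18. The intervals of the 3 libraries did not overlap for ATP5G2, and a share within a library depends on no scaling. In the knockdown experiment ATP5G2 held 54.9% (53.2 to 56.5), 56.7% (55.5 to 57.9) and 50.3% (48.4 to 52.2) with scramble, CDK16-sh1 and CDK16-sh2, and ATP5G1 10.6%, 13.2% and 16.5%. With CDK16-sh2 ATP5G2 and ATP5G3 stood at -0.40 and -0.32 and ATP5G1 at 0.36.

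The other subunits of complex V included some of the highest values. ATP5L (2.12), a membrane subunit that holds dimers of the enzyme together, ATP5E (2.10), of its central stalk, and ATP5B (1.76), the catalytic beta subunit, stood far above DMSO at 5 μM. All 3 membrane subunits were at least 2-fold higher (23.6% of all genes), and the 5 genes of the F1 head ran from -0.00 to 2.10. With library totals 1 of the 3 membrane subunits was at least 2-fold higher (11.7% of all genes). The F1 genes then ran from -0.69 to 1.41. ATP5C1, the gamma subunit of the central stalk, had 18.4, 25.8 and 11.4 RPKM, the highest log2 fold change of complex V at 1 μM (0.44) and -0.00 (-0.11 to 0.11) at 5 μM, or -0.69 with library totals. ATP5SL, the assembly factor taken in by its name, had 18.8, 14.5 and 9.67 RPKM, -0.42 and -0.27.

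By the smaller of the 2 absolute changes, 4 members had the largest difference above DMSO shared by both doses. They were UQCRFS1, ATP5G3, NDUFAB1, the mitochondrial acyl carrier protein that complex I binds, and NDUFA5, an accessory subunit. This smaller change was that at 1 μM, and NDUFC2 (0.35 and 2.63) stood higher than these 4 at 5 μM. NDUFAB1 stood at 8.96 RPKM in the DMSO library and at 12.3 and 8.76 RPKM in the treated ones, log2 fold changes of 0.41 and 0.66, the latter -0.03 with library totals. NDUFA5 had 2.90, 3.95 and 7.95 RPKM, log2 fold changes of 0.39 and 2.14. In all, 46 of 82 members lay above DMSO at both doses (29.3% of all genes) and 7 below it at both (30.9%), among them NDUFS8, SDHC, UQCRC1, COX7B2, ATP5G2 and ATP5SL. These shared counts were made with TMM scaling only.

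When the doses were pooled and set against DMSO, the test of edgeR called 0 members (0.0703% of all genes were called higher and 0.00639% lower). None had an unadjusted p-value under 0.05, where 228 genes (1.46%) had one. DESeq2 called 0 members too. With dose as a linear term, where the spread is the deviation of 3 libraries from a line, 22 of 82 members (26.8%) passed an adjusted p-value of 0.05 with a positive slope, and 0 with a negative one. For all genes these shares were 13.3% and 11.1%. With a slope of at least 2-fold per unit of log2(dose + 1) added to the rule, 2 members were called, where 10.3% of all genes were. The smallest adjusted p-value of a member was 0.000424, for NDUFC2 (edgeR's quasi-likelihood test). That fit rests on 1 residual degree of freedom and cannot show a spread between cultures.

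The counterpart of the module is read from mitochondrial DNA, and its 13 genes did not move by the same amount as the nuclear ones. Their median log2 fold change was -0.05 with CDK16-sh1, 0.80 with CDK16-sh2, 0.14 at 1 μM and 1.497 at 5 μM Reb. The nuclear members stood above them by 0.46 with CDK16-sh1, and below them by a difference of -0.54 with CDK16-sh2, -0.06 at 1 μM and -0.61 at 5 μM. In counts, there were 16.9 counts on the 13 genes for each on the members in the scramble library, 13.2 with CDK16-sh1 and 22.3 with CDK16-sh2, and 13.9, 14.5 and 18.4 with DMSO, 1 μM and 5 μM Reb. The hairpins lay on opposite sides of scramble in this ratio, which no scaling of the libraries changes.

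With CDK16-sh1 the lowest of the 13 were MT-ND4L (-0.84) and MT-ATP8 (-0.36) and the highest MT-ND6 (0.35) and MT-ND3 (0.10). With CDK16-sh2 MT-ND2 (1.20) and MT-ND3 (1.15) were highest and MT-ND1 (0.45) and MT-CYB (0.46) lowest. At 1 μM MT-ND6 (0.52) and MT-ND3 (0.37) were highest and MT-CO3 (-0.06) and MT-CO1 (-0.02) lowest. At 5 μM MT-ND6 (2.08) and MT-ND4 (2.03) were highest and MT-CO3 (0.85) and MT-CYB (1.09) lowest. At that dose 12 of 13 genes were at least 2-fold higher (23.6% of all genes). With library totals 6 of 13 were (11.7% of all genes), and the median of the 13 genes was 0.81. MT-ND4L and MT-ATP8 overlap their neighbours on the mitochondrial genome, so their counts are uncertain.

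Genes that build or serve the complexes were described in the same way from lists written by hand, and the highest and lowest genes of a list are named among those with a mean of 5 CPM or more. The 53 assembly factors had medians of 0.20 and 0.33 with CDK16-sh1 and CDK16-sh2 and of 0.02 and 0.18 at 1 μM and 5 μM Reb. At 5 μM 12 of them were at least 2-fold higher and 11 at least 2-fold lower, shares of 22.6% and 20.8% beside 23.6% and 27.2% of all genes. The highest were COX10 (3.14), which makes a precursor of the heme of complex IV, and COX16 (3.03), and the lowest were ACAD9 (-2.44) and ECSIT (-2.37), which help to assemble complex I. At 1 μM TTC19 (0.54) and COX20 (0.48) were highest and COA4 (-0.59) and COA3 (-0.52) lowest. With CDK16-sh1 SDHAF2 (1.07), which attaches the flavin of SDHA, and NDUFAF3 (1.00) were highest and LYRM7 (-0.55) and TTC19 (-0.52) lowest, and with CDK16-sh2 NDUFAF1 (1.26) and COA6 (1.14) were highest and LYRM7 (-1.66) and NDUFAF6 (-1.61) lowest. LYRM7, which chaperones the Rieske protein UQCRFS1, was low with both hairpins. Under the limit of 5 CPM SDHAF4 (1.02) and NDUFAF3 (-0.76) lay further out at 1 μM, SDHAF4 (1.25) with CDK16-sh2 and SDHAF1 (-2.41) at 5 μM. With library totals the medians of the assembly factors, of the regulators and TCA cycle genes described next, and of the mitochondrial ribosomal proteins were -0.50, -0.49, -0.44 and -0.69 at 5 μM, so the first 3 change sign with the scale there.

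The 16 regulators of mitochondrial biogenesis had medians of -0.26, 0.27, -0.03 and 0.20 in CDK16-sh1, CDK16-sh2, 1 μM and 5 μM Reb. PPARGC1B, a coactivator of nuclear genes for mitochondria, went from 405 counts in the DMSO library to 509 and 2284 at the low and high dose, log2 fold changes of 0.30 and 3.60. GABPA, which binds the ETS word, had 1948, 1943 and 3019 counts, -0.03 and 1.74, and GABPB2, a partner of GABPA, had 561, 310 and 42 counts, -0.87 and -2.60. TFB1M (-1.74) was the other low value at 5 μM, and TEFM (0.63) and NRF1 (-0.40) were the others named at 1 μM. PPARGC1A, under 5 CPM, had 0.78 at 1 μM and 1.79 at 5 μM. With CDK16-sh1 TFB2M (-0.81) and ESRRA (-0.77) were lowest and PPRC1 (0.31) and TFB1M (0.25) highest, and with CDK16-sh2 GABPA (-0.37) and YY1 (-0.30) were lowest and TFB1M (0.80) and POLRMT (0.68) highest. TFB1M, a methyltransferase for mitochondrial ribosomal RNA, thus stood above scramble with CDK16-sh2 and below DMSO at 5 μM Reb.

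The 18 genes listed for the TCA cycle, which supplies NADH and succinate, had medians of -0.09, -0.01, 0.15 and 0.25. The list also takes in PDHA1, PDHB, DLAT and PDHX of pyruvate dehydrogenase, which feeds the cycle. At 5 μM MDH2 (1.45) and IDH3B (1.36) were highest and OGDH (-2.10) and PDHB (-1.97) lowest. At 1 μM IDH3A (0.31) and SUCLA2 (0.25) were highest, with OGDH (-0.23) and PDHB (-0.19) again lowest. With CDK16-sh1 MDH2 (0.51) was highest and PDHX (-1.14) and IDH2 (-1.13) lowest, and with CDK16-sh2 PDHA1 (0.63) and IDH3B (0.40) were highest and SUCLA2 (-0.72) and IDH3A (-0.56) lowest.

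Ribosomal protein genes, for the ribosomes of the cytosol and of mitochondria, were set beside the module. The cytosolic ones had medians of 0.67 and 0.54 with the hairpins over 84 genes and of -0.18 and 1.26 at 1 μM and 5 μM over 85. The 78 mitochondrial ones had 0.39, 0.37, 0.05 and -0.00. With the hairpins the respiratory subunits lay close to the mitochondrial ribosomal proteins, and at 5 μM they lay nearer to the cytosolic ones. The difference between these lists was not tested.

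**Figure D5:**
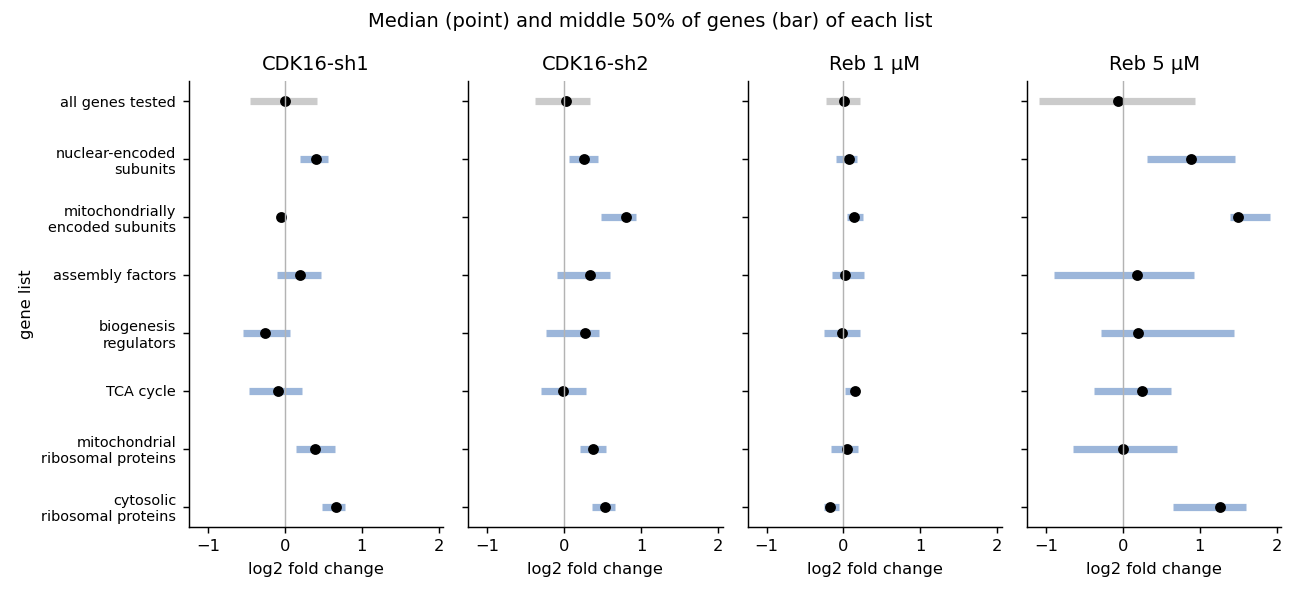
Median log2 fold change (points; x axis, TMM-scaled CPM) and the middle 50% of the genes (bars) of each gene list (y axis) in the 4 treated libraries. At 5 μM Reb the nuclear-encoded subunits stand at 0.89, between the mitochondrial ribosomal proteins at -0.00 and the mitochondrially encoded subunits at 1.497.

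The experiments have separate controls, so their values for the members can be set side by side. Over the 81 members compared in both, the Spearman rho was -0.39 between CDK16-sh1 and 1 μM Reb, 0.01 between CDK16-sh1 and 5 μM, 0.09 between CDK16-sh2 and 1 μM and 0.26 between CDK16-sh2 and 5 μM. The points share genes of like length and GC content, and the GC relations of CDK16-sh1 and 1 μM Reb given above have opposite signs. The part of these properties in the rho values was not tested. No rho between treated libraries of the 2 experiments was computed over all genes. The controls themselves ordered the members alike, with a rho of 0.94 between the RPKM of DMSO and scramble over 82 members with at least 50 counts in either. Over the 14412 genes tested in both experiments this rho was 0.91, so genes at large were ordered nearly as much alike. The median log2 ratio of DMSO to scramble was -0.69 over the 82 members and -0.12 over the 14412 genes. Among the members the ratio ran from -2.09 for ATP5G2 and NDUFC1 to 0.79 for UQCRB and 2.61 for COX7B2.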

How the data were processed

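RNA-seq was analysed for 3 knockdown and 3 Reb libraries of MDA-MB-231 cells. Raw counts per gene and RPKM values were deposited by the authors in separate tables for each experiment. The submitters' processing notes name Trimmomatic, featureCounts, Subread 1.5.1 and GRCh38, and the aligner is not given in the sources used here. The kit was stranded, and the strand setting of the counting is not given there either. The authors defined changed genes with edgeR at an FDR of 0.05 and 2-fold, a threshold kept for the pooled test. RPKM as deposited by the authors was used for levels, and the deposited counts for all comparisons.

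Genes whose mean reached 1 CPM were compared in R 4.3.3 with edgeR 4.0.16. Log2 fold changes are differences of log2 CPM (TMM-scaled, prior count of 2), which understates the changes of low genes. Their 95% intervals are conditional binomial (Clopper-Pearson) intervals of the 2 counts and, like the floor of 3 counts, cover counting error only. With 1 library per condition no test of a single treated library was made. The pooled test put both treated libraries of an experiment into 1 group (quasi-likelihood, Benjamini-Hochberg over all genes), so its p-values measure only the spread between those libraries. Totals ranged from 25838443 to 50303269 counts, and the scripts were tested on simulated counts. DESeq2 1.42.0, mgcv 1.9.3 (trends), Python 3.11.15, scipy 1.17.1 and pandas 2.3.3 were also used.

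The members, the lists and the rule for named genes were chosen with earlier results of these data known. Named were the genes of complex II, CYCS, CYC1, UQCRFS1 and the isoform families. Among members reaching 5 CPM as a mean, the 4 highest and the 4 lowest shared by both treated libraries were named. The shared rank used the smaller of the 2 absolute log2 fold changes. Of the same members, the 3 highest and the 3 lowest in each treated library were also named. From each other list the 2 highest and the 2 lowest with that mean were named. Some genes under this rule are not reported here. NDUFA4, ATP5L, ATP5E, ATP5B, UQCRQ, UQCRC1, NDUFV2, NDUFB7, NDUFC1, NDUFA7, NDUFA11, UQCRB, SDHAF4, SDHAF1 and PPARGC1A (and NDUFAF3 at 1 μM) were named after their values were seen. Alternatives were library totals, DESeq2 size factors, no filter, trends, a 1.5-fold threshold, the DESeq2 test, no fold minimum, dose as log2(dose + 1), raw-count shares and summed counts. Leaving out members with shared exons and a background of at least 5 CPM were added after seeing the data.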

Additional observations from a re-analysis of the deposited data

Results flagged for a closer look

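Symbols ending in P or P and digits were left out of the module, and their summed counts were above the limit of 3 that a count of 0 allows in every library. They were 137 with scramble, 210 with CDK16-sh1, 87 with CDK16-sh2, 79 with DMSO, 88 with 1 μM Reb and 117 with 5 μM Reb. UQCRFS1P1, a copy of the Rieske protein gene, had 65, 63 and 34 of these counts in scramble, CDK16-sh1 and CDK16-sh2.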

How the results depend on the processing

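No paired analysis was possible because each condition had 1 library and the labels give no replicate numbers, and for the same reason no library could be left out. Of the values of named members none past 2-fold changed sign, but with library totals 18 smaller ones did, among them at 5 μM ATP5G1 (0.55 to -0.14), ATP5G3 (0.51 to -0.18), NDUFA8 (0.47 to -0.22), UQCRC2 (0.23 to -0.46), NDUFS3 (0.19 to -0.50), CYC1 (0.57 to -0.12) and NDUFA3 (0.63 to -0.06), and with size factors 2 did. The members' median relative to all genes moved, for CDK16-sh1, CDK16-sh2 and 5 μM Reb in this order, to 0.39, 0.23 and 0.69 with no filter on low counts, to 0.18, 0.068 and 0.51 with the trend on mean expression and length removed, to 0.23, 0.18 and 0.73 with the trend on GC content and length removed, and to 0.39, 0.28 and 0.97 without members with shared exons. At 1 μM it was 0.093 with the first trend removed. Against genes of at least 5 CPM it was 0.21 with CDK16-sh2 and 0.90 at 5 μM. At 1.5-fold, 18 members were higher and 2 lower with CDK16-sh1, 15 and 2 with CDK16-sh2, 1 and 1 at 1 μM, and 6 were lower at 5 μM. With no filter 1 member was at least 2-fold higher with CDK16-sh2 and 2 were lower at 1 μM. For the 1.5-fold threshold and for no filter the shares of all genes were not computed. These counts can therefore not be read against genes at large. With library totals 14 were higher and 7 lower at 5 μM (11.7% and 43.4% of all genes). With dose as a linear term 2 members were called past the fold, where 10.3% of all genes were. As raw counts, ATP5G2 held 54.9%, 56.7% and 50.3% in the knockdown libraries and 31.0% at 1 μM, and COX7A2 held 57.7%, 59.7%, 49.0%, 59.8%, 58.5% and 53.4% in scramble, CDK16-sh1, CDK16-sh2, DMSO, 1 μM and 5 μM. By summed counts the nuclear to mitochondrial ratio was 0.36 with CDK16-sh1, -0.40 with CDK16-sh2 and -0.40 at 5 μM. The cause of these differences was not tested. Of the values of named members, 77 of 146 moved beyond their counting interval with library totals and 8 of 146 with DESeq2 size factors. Single libraries, a scale that differs at 5 μM and genes that share exons limit what these values show.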
